A study of Mus musculus with 90 samples.

Results

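A set of 9 genes that mark T lymphocytes, Cd3d, Cd3e, Cd3g, Cd2, Lat, Cd4, Cd8a, Lck and Cd5, were followed through 15 tissues of female mice in estrus and in diestrus. They were matched to the deposited table by Entrez Gene identifier, which gave 9 of the 20414 genes listed. The genes were selected on measured values of these libraries, namely their phase differences in duodenum, vein and aorta and their levels against spleen, so those values are described here without a test.

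The mice were females of strain C57BL/6 and 10 weeks old by the sample labels (C57BL/6J in the study's text), and no group carried an allele or received an agent. By the study's text, phase was read from daily vaginal smears stained with methylene blue, with serum estrogen and progesterone measured as an aid. Each tissue was sequenced in 3 estrus and 3 diestrus libraries, 90 in all, as whole tissue and without sorting of cells. In such bulk RNA a lower level can mean fewer T cells or less RNA per T cell, which cannot be told apart. Levels are given as FPKM, a unit that scales fragments by transcript length and library size and so allows genes of different length to be compared. The table holds no read totals, so the depth behind a value is not known from it. By the study's text 3 mice per phase served as biological replicates, and the 15 tissues were taken from them, so libraries of different tissues can share a mouse. The labels do not say whether libraries with the same number came from the same mouse.

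T cells recognise antigen through a receptor that has no signalling tail of its own. It is held at the surface by the CD3 chains, which Cd3d, Cd3e and Cd3g encode, and whose tails are phosphorylated by the kinase Lck. Cd4 and Cd8a encode the coreceptors that bring Lck to the receptor and divide T cells into helper and cytotoxic lineages. Lat is the membrane scaffold on which the signal is assembled, Cd2 is an adhesion receptor, and Cd5 dampens the signal. Spleen is a store of recirculating T cells, while the gut lining holds resident T cells between the epithelial cells, many of them carrying CD8 as a pair of alpha chains.

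Cd3g and Cd3d lie back to back, with starts 1355 bases apart on opposite strands, and Cd3e starts 27825 bases further along the same chromosome. Promoters are shown for these chains, which define the T cell, and for both starts of Lck, the member that departed most from them in the uterus. The RefSeq table of build GRCm38.p6 gave a promoter for 7 of the 9 genes and none for Cd2 and Cd4. Capitals mark AGGAAG (Ets), TGTGGT (Runx), CTTTGA (Tcf) and CAGGTG (E-box), searched on both strands, and no matches of different motifs overlapped in the promoters shown.
Cd3g, chr9:44980432-44980681, minus strand: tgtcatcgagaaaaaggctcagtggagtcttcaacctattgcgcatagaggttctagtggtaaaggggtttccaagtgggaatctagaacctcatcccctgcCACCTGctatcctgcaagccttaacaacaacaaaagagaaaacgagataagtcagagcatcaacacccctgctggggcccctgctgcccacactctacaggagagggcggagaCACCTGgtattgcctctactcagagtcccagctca
Cd3d, chr9:44981536-44981785, plus strand: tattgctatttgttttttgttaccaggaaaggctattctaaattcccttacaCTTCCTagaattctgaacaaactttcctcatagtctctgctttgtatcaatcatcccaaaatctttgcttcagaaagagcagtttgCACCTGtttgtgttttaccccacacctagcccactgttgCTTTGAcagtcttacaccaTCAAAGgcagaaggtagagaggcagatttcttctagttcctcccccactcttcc
Cd3e, chr9:45009612-45009861, minus strand: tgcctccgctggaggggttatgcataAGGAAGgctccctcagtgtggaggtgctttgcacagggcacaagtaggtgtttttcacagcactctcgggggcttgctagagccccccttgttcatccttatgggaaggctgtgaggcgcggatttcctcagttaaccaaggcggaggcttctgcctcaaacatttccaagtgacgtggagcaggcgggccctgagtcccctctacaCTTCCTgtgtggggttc
Lck, distal start, chr4:129573642-129573891, minus strand: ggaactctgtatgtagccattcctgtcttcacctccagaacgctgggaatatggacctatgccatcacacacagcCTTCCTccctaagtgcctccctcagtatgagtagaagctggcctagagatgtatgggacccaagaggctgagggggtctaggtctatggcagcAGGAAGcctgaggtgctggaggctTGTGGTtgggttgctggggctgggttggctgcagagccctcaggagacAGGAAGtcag
Lck, proximal start, chr4:129558373-129558622, minus strand: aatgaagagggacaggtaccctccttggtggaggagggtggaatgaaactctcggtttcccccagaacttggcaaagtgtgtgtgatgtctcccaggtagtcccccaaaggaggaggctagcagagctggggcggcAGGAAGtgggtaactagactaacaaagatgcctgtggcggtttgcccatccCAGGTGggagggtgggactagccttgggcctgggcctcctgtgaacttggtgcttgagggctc
Each run is the 250 bases before the start, written 5′ to 3′ on the strand of the gene. Over all 32851 promoters of this length in the table, 29.5% held the Ets letters, 14.1% the Runx letters, 13.8% the Tcf letters and 17.2% the E-box letters. Cd3e held 2 Ets matches, Cd3d held 1 Ets, 2 Tcf and 1 E-box matches, and Cd3g held 2 E-box matches and no Ets match. The distal start of Lck held 3 Ets matches and 1 Runx match, and the proximal start 1 Ets match and 1 E-box match. The gene-level FPKM sums over both starts of Lck, so they are not separated below.

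Several libraries stood apart from the others of their tissue for these genes or for other cell types. Those that touch a result below are vein estrus replicate 3, aorta diestrus replicate 3, duodenum estrus replicate 1, aorta estrus replicate 1, spleen estrus replicate 2, white adipose tissue (WAT) estrus replicate 1, skeletal muscle estrus replicate 1 and brown adipose tissue (BAT) estrus replicate 3. The last lists 12048 genes at 0, against 2404 to 4820 in the other 89 libraries. Vein and aorta libraries held adipocyte RNA, with Adipoq, which encodes the hormone adiponectin, at 564 to 1476 FPKM in vein and 104 to 1148 FPKM in aorta. Acta2, the smooth muscle actin that marks the vessel wall, was at 643 to 2030 FPKM in vein and 669 to 7925 FPKM in aorta.

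Spleen had the highest level of all 9 genes, and duodenum came second by mean for each of them. For Cd2 that rank rested on duodenum estrus replicate 1, without which its duodenum mean went from 7.28 to 4.34 FPKM, below vein at 6.89 and WAT at 4.72 FPKM. In spleen Cd2 was the most abundant, at 141.03 to 184.23 FPKM, and Cd5 and Cd8a the least, at 32.07 to 48.99 and 41.86 to 47.08 FPKM. The mean of the 9 ratios to spleen was 10.9% in duodenum, 5.61% in vein, 2.95% in WAT, 2.44% in uterus and 2.38% in aorta. Stomach, ovary, kidney, liver and BAT lay between 1.02% and 2.17%, heart, cerebrum and hypothalamus between 0.506% and 0.892%, and skeletal muscle at 0.196%. The cerebrum mean of 0.891% rested mostly on Cd4, at 4.78% of its spleen level. The median over the 9 genes was 0.215% in cerebrum and 0.770% in heart. The value of vein rested on a single library and was 1.75% without vein estrus replicate 3, and that of aorta was 1.12% without aorta diestrus replicate 3. That of duodenum was 9.99% without duodenum estrus replicate 1.

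Ordered by the median over libraries of the mean log2(FPKM + 1) of the 9 genes, the tissues ran from spleen (6.40) and duodenum (3.06) through WAT (1.83), uterus (1.45), stomach (1.41), ovary (1.35), vein (1.31), kidney (1.11), aorta (1.04), liver (0.89), BAT (0.82), heart (0.72), cerebrum (0.46) and hypothalamus (0.45) to skeletal muscle (0.21). Only the first steps were clear of the spread. The lowest spleen library (6.11) was above the highest duodenum library (3.77), and the lowest duodenum library (2.62) above the highest WAT library (1.96). From WAT downwards every tissue overlapped the next in the order.

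**Figure D1:**
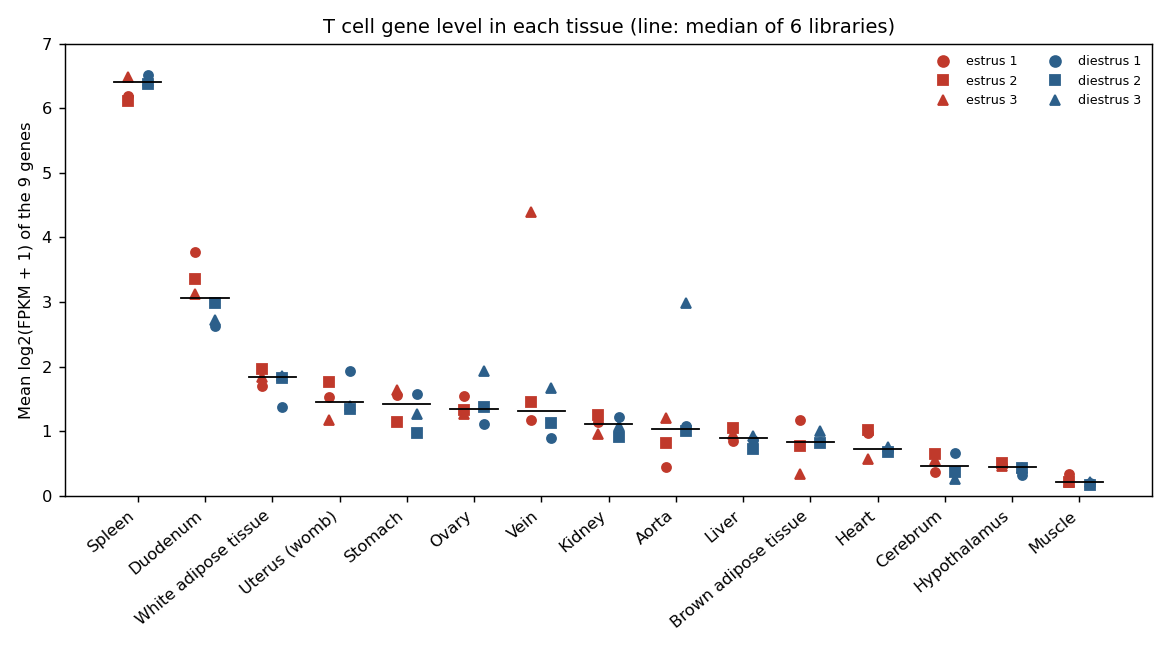
Mean log2(FPKM + 1) of the 9 T cell genes in each library (vertical axis) for 15 tissues (horizontal axis), with estrus in red, diestrus in blue, the symbol giving the replicate number and the line the median of 6 libraries. Spleen and duodenum are separate from the rest, and vein estrus 3 (4.39) and aorta diestrus 3 (2.99) lie far above the other libraries of their tissue.

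The genes did not fall in proportion from spleen to duodenum. Cd8a and Cd3g stood at 19.7% and 17.9% of their spleen level, Cd3e at 13.7%, and Cd3d, Lck, Lat and Cd4 at 9.26%, 9.18%, 8.96% and 8.55%. Cd5 stood at 6.57% and Cd2 at 4.46%, and without duodenum estrus replicate 1 these were 4.74% and 2.66%. Cd4 exceeded Cd8a in all 6 spleen libraries, with ratios of 1.57 to 2.09, whereas in duodenum the ratio was 0.48 to 1.10 in 5 libraries and 2.10 in estrus replicate 1. The second CD8 chain, Cd8b1, which pairs with Cd8a on conventional cytotoxic T cells, was 1.71 to 1.95 times Cd8a in spleen and 0.66 to 1.14 times in duodenum, without overlap.

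In duodenum the 3 estrus libraries were above the 3 diestrus libraries for 7 of the 9 genes, Cd3d, Cd3e, Cd3g, Cd2, Lat, Lck and Cd5. Over all 12410 genes tested in duodenum, 4.51% were higher in every estrus library in this way and 22.1% lower. Since the genes were chosen with this difference known, the count is given as a description.

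Cd3d was at 8.10, 8.36 and 5.25 FPKM in estrus replicates 1 to 3 and at 3.46, 3.58 and 3.64 FPKM in diestrus. Cd3e was at 12.24, 12.64 and 10.95 FPKM in estrus and at 7.11, 10.70 and 10.04 FPKM in diestrus. The gap between the phases was thus clear for Cd3d and narrow for Cd3e, whose lowest estrus value lay just above its highest diestrus value. Cd3g, the most abundant of the chains in duodenum, was at 20.81, 24.99 and 20.91 FPKM in estrus and 16.78, 20.53 and 17.61 FPKM in diestrus, again with a narrow gap. The ratios of the phase means were 2.03 for Cd3d, 1.29 for Cd3e and 1.21 for Cd3g.

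The kinase Lck was at 20.39, 11.58 and 9.43 FPKM in estrus and at 6.47, 7.59 and 6.03 FPKM in diestrus. Its scaffold partner Lat was at 17.27, 10.16 and 9.11 FPKM in estrus and at 6.63, 7.60 and 7.86 FPKM in diestrus. In both, estrus replicate 1 was far above the others, and the remaining estrus libraries still lay above diestrus. The ratios of the phase means were 2.06 for Lck and 1.65 for Lat, and without estrus replicate 1 they were 1.57 and 1.31.

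Cd2 was at 21.94 FPKM in estrus replicate 1, at 6.08 and 6.40 FPKM in the other estrus libraries, and at 2.08, 4.22 and 2.94 FPKM in diestrus. Cd5 was at 6.55 FPKM in estrus replicate 1, and its other estrus values of 2.16 and 2.14 FPKM were barely above the diestrus values of 2.12, 2.12 and 1.31 FPKM. The ratio of the phase means of Cd2 went from 3.73 to 2.03, and that of Cd5 from 1.96 to 1.16, when estrus replicate 1 was left out. For both, most of the distance between the phases was in that library.

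The coreceptors overlapped between the phases. Cd4 was at 12.57, 6.87 and 6.07 FPKM in estrus and at 3.83, 8.72 and 4.07 FPKM in diestrus. Cd8a was at 5.98, 14.41 and 9.76 FPKM in estrus and at 6.48, 7.94 and 7.90 FPKM in diestrus. Estrus replicate 1 was the highest library for Cd4 and the lowest of all for Cd8a. Without it, 8 of the 9 genes were higher in both remaining estrus libraries than in diestrus, Cd8a now among them and Cd4 the exception, where 10.5% of all genes were higher and 46.6% lower.

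The median difference of the 9 genes, estrus minus diestrus on the log2(FPKM + 1) scale, was 0.58 in duodenum, where the median of all tested genes was -0.16, and 0.74 after each library was centred on its median. Without estrus replicate 1 it was 0.35.

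**Figure D2:**
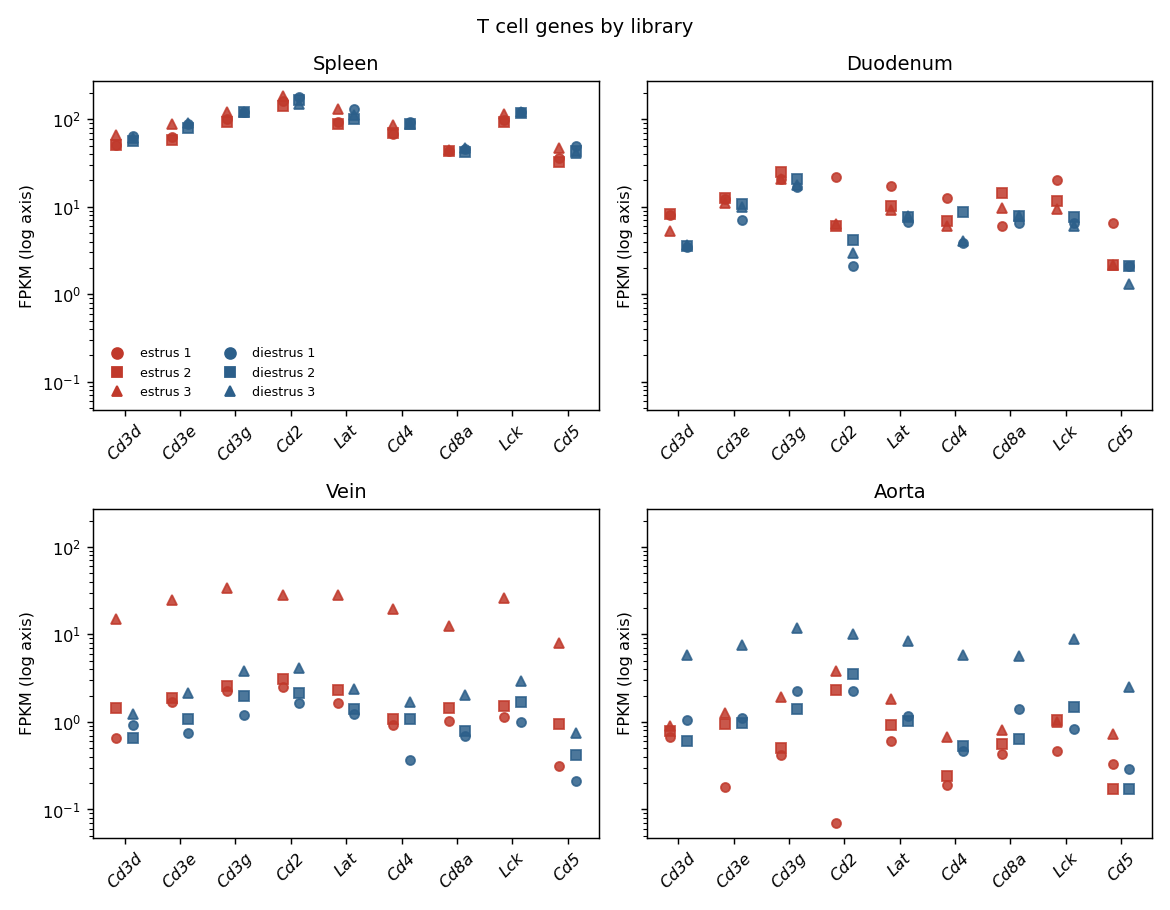
FPKM on a log axis (vertical) of each of the 9 T cell genes (horizontal) in the 6 libraries of spleen, duodenum, vein and aorta, with estrus in red, diestrus in blue and the symbol giving the replicate number. In vein and aorta a single library, estrus 3 and diestrus 3, is the highest for every gene, while in duodenum estrus 1 is the highest for Cd2, Lat, Cd4, Lck and Cd5 and the lowest for Cd8a.

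Other lymphocyte genes differed in duodenum estrus replicate 1. All 10 genes of the B cell list were highest there. Cd79b, a signalling chain of the B cell receptor, was at 94.10 FPKM, against 12.47 and 16.96 FPKM in the other estrus libraries and 5.33 to 9.30 FPKM in diestrus. Cxcl13, the chemokine of B cell follicles, was at 113.22 FPKM, against 2.00 to 20.34 FPKM in the other 5 libraries. The summed FPKM of the B cell list was 661 in estrus replicate 1, 83.8 and 118 in estrus replicates 2 and 3, and 25.6 to 45.4 in diestrus, so the remaining estrus libraries were also above diestrus.

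Tissue composition differed in the same library. Vil1, which encodes the brush border protein villin, was at 288.16 FPKM there and at 568.34 to 857.60 FPKM in the other 5 duodenum libraries. Acta2 was at 413.37 FPKM in estrus replicate 1 and at 44.44 to 156.67 FPKM in the others. The summed FPKM of 5 genes of the pancreatic acinus was 42.5, against 4.10 to 5.75. Lower Vil1, higher Acta2, acinar and B cell genes and higher Cd2, Lat, Cd4, Lck and Cd5 thus stood together in a single library, and the part of the former in the values of the T cell genes was not tested.

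Genes of cytotoxic and resident T cells were divided in that library. Of the 12 cytotoxic genes 1 was highest there, and of the 6 genes of intraepithelial and resident T cells 2 were. Gzma, a protease of cytotoxic granules, was at 44.30 FPKM in estrus replicate 1, the lowest of the tissue, and at 87.85 to 176.23 FPKM in the others. Itgae, the integrin chain that ties T cells to E-cadherin, was at 1.64 FPKM there and at 3.69 to 4.91 FPKM in the others. Ccl5, a chemokine of effector T cells, was also lowest there, at 64.04 FPKM against 90.11 to 170.34 FPKM. The 2 resident genes were Cd69, a receptor that retains T cells in tissue, at 8.40 FPKM against 1.03 to 2.45 FPKM, and the lipid receptor gene Gpr18, at 13.97 FPKM against 1.60 to 4.82 FPKM. Ccr7, a receptor that guides naive lymphocytes into lymph nodes, was at 7.52 FPKM there, at 2.24 and 1.54 FPKM in estrus replicates 2 and 3, and at 0.28 to 0.58 FPKM in diestrus.

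In vein the 9 genes overlapped between the phases, and estrus replicate 3 held the highest value of every one. Cd3e was at 1.68, 1.88 and 24.84 FPKM in estrus and at 0.75, 1.09 and 2.12 FPKM in diestrus. Cd3d was at 14.83 FPKM and Cd3g at 34.08 FPKM in estrus replicate 3, against at most 1.43 and 3.85 FPKM in the other 5 libraries. The CD3 chains of this library lay above every duodenum library.

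Lck was at 25.92 FPKM in vein estrus replicate 3 and at 1.00 to 2.95 FPKM in the others, and Lat at 28.32 FPKM and 1.24 to 2.41 FPKM. Cd4 was at 19.35 FPKM and 0.37 to 1.70 FPKM, and Cd8a at 12.34 FPKM and 0.70 to 2.05 FPKM. Cd2 was at 27.87 FPKM and 1.65 to 4.09 FPKM, and Cd5 at 8.04 FPKM and 0.21 to 0.94 FPKM. Set against the median of the other 5 libraries, the library was 11.2 to 19.1 times higher, with a median over the 9 genes of 15.9 times.

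The ratios of the phase means in vein therefore ran from 4.18 for Cd8a to 7.17 for Cd3e with all libraries, and from 0.70 for Lck to 1.36 for Cd5 without estrus replicate 3. The median difference of the 9 genes was 1.10 on the log2 scale with all libraries and 0.10 without that library. The median over all 13239 genes tested was -0.10. None of the 9 genes separated the phases, where 5.28% of the genes tested were higher in every estrus library and 12.9% lower, and none did without that library, where the shares were 8.88% and 24%.

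The same vein library was high in B cell and lymph node genes. All 10 B cell genes were highest there, with Cd79a, the partner chain of Cd79b, at 89.16 FPKM against 1.75 to 3.10 FPKM. Ccl21a, the chemokine that guides T cells into lymph nodes, was at 265.68 FPKM against 59.63 to 144.78 FPKM. Glycam1, a glycoprotein of high endothelial venules that the mammary gland also makes, was at 191.10 FPKM there and at 44.17 FPKM in estrus replicate 2, whose T cell genes were not raised, and at most 1.28 FPKM in the others. The milk protein genes Csn1s1, Csn2, Csn3, Wap and Lalba, added after the values were seen, summed to 0.20 FPKM in that library. Acta2 was at 801.82 FPKM and Adipoq at 1052.69 FPKM, within the range of the other vein libraries. The part of the lymph node genes in the result was not tested.

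In aorta diestrus replicate 3 held the highest value of every member. Cd3e was at 0.18, 0.95 and 1.28 FPKM in estrus and at 1.10, 0.98 and 7.57 FPKM in diestrus. Cd3g was at 11.83 FPKM in diestrus replicate 3, against 0.42 to 2.25 FPKM elsewhere in aorta, and Cd3d at 5.86 FPKM against 0.61 to 1.06 FPKM. Diestrus was the higher phase here, opposite to vein, and most of the distance was again in a single library.

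Lck was at 8.92 FPKM and Lat at 8.47 FPKM in aorta diestrus replicate 3, against 0.46 to 1.48 and 0.61 to 1.85 FPKM. Cd4 was at 5.78 FPKM against 0.19 to 0.67 FPKM, and Cd8a at 5.66 FPKM against 0.43 to 1.41 FPKM. Cd2 was at 9.99 FPKM, against 2.23 to 3.78 FPKM in 4 libraries and 0.07 FPKM in estrus replicate 1, and Cd5 was at 2.49 FPKM against 0.17 to 0.73 FPKM. The excess over the median of the other 5 libraries was 4.31 to 12.3 times, with a median of 8.51 times, smaller than in the vein library.

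The median difference of the 9 genes in aorta was -0.90 on the log2 scale with all libraries and -0.23 without diestrus replicate 3. In aorta 8 of the 9 genes passed the filter of a mean of 1 FPKM, Cd5 being the exception, and none separated the phases, where 2.39% of 12553 genes tested were higher in every estrus library and 9.54% lower. Without diestrus replicate 3 none did either, where the shares were 4.66% and 11.6%. Without the library 8 of the 9 differences stayed below 0, the lowest at -0.60 for Cd3g, and that of Cd5 turned from -0.32 to 0.18. Aorta estrus replicate 1 was the lowest library for Cd3e, Cd3g, Cd2, Lat, Cd4, Cd8a and Lck. It was also the library with the most Acta2, at 7925 FPKM against 669 to 1152 FPKM, and the least Adipoq, at 104 FPKM against 934 to 1148 FPKM.

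Lymph node genes were high in this aorta library too, with a smaller excess of the B cell genes. Ccl21a was at 261.93 FPKM against 12.14 to 27.95 FPKM, Ccl19, the other ligand of Ccr7, at 39.10 FPKM against at most 3.42 FPKM, and Glycam1 at 337.40 FPKM against at most 0.14 FPKM. Cd79a was at 20.03 FPKM against 0.32 to 7.69 FPKM. All 10 B cell genes were highest there, by 2.19 to 8.92 times the median of the others, compared with 21.0 to 64.0 times in the vein library. Acta2, at 739.34 FPKM, and Adipoq, at 1088.61 FPKM, were within the range of the other aorta libraries.

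Rag1, Rag2 and Dntt, which rearrange receptor genes in developing T cells, were under 1 FPKM in both vessel libraries. Rag1, which cuts receptor genes in thymocytes, was at 0.01 FPKM in vein estrus replicate 3 and 0.24 FPKM in aorta diestrus replicate 3, and Dntt, which adds bases at their joints, at 0.23 and 0.76 FPKM. In aorta these were the highest values of the tissue, whose other libraries held at most 0.06 FPKM of Rag1 and 0.11 FPKM of Dntt. Ptcra, which encodes a chain of the immature receptor, was at 1.10 and 0.61 FPKM and Endou at 1.29 and 1.86 FPKM. Foxn1, the defining factor of thymic epithelium, was at 0 and 0.03 FPKM. The summed FPKM of the 5 thymocyte genes was 2.81 in the vein library, where the other 5 held 1.52 to 2.91, and 3.57 in the aorta library, where the other 5 held 1.35 to 2.46.

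**Figure D3:**
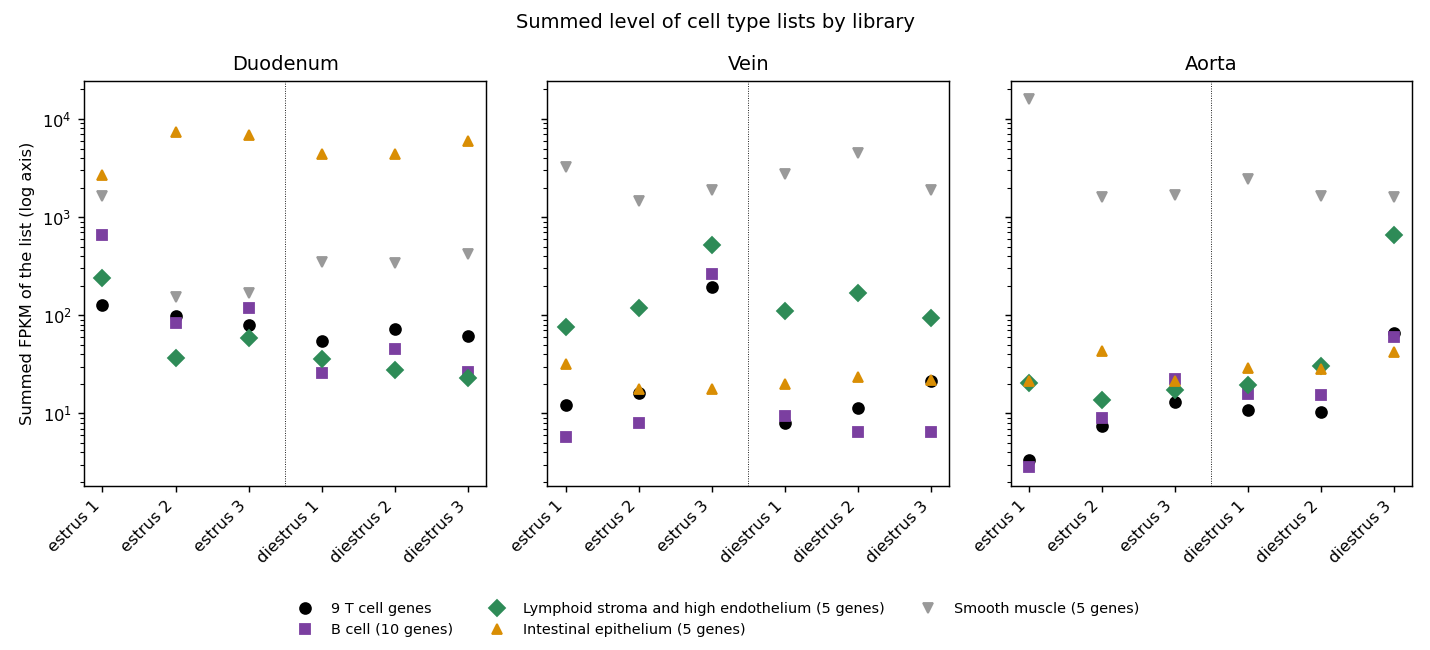
Summed FPKM on a log axis (vertical) of the 9 T cell genes and of 4 lists of cell type genes in each library (horizontal) of duodenum, vein and aorta, with the phases divided by the dotted line. The T cell sum reaches 196 in vein estrus 3 and 66.6 in aorta diestrus 3, together with the stroma and high endothelium list at 515 and 651, while in duodenum estrus 1 the B cell sum of 661 comes with the lowest epithelial sum, 2666.

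Of 74 other T cell genes in 7 lists, 68 were listed in the table. The constant regions of the receptor chains were not analysed here. In duodenum 52 passed the filter, and limma with Benjamini-Hochberg adjustment called 0 of them in either direction, with 12 at an unadjusted p under 0.05, where 0% of all genes tested were called. Beside the 4.51% given above, 21 of the 52 were higher in every estrus library than in diestrus and 1 was lower, and without estrus replicate 1 the counts were 25 and 2. A joint fit of all 90 libraries called 6 of the genes in duodenum, all higher in estrus, where it called 1.98% of all genes higher. Over all 52 genes the median difference in the fit of duodenum alone was 0.43 on the log2 scale.

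By list in duodenum, 8 of 16 genes of receptor signalling were higher in every estrus library, 2 of 7 of costimulation, 4 of 8 transcription factors of the lineage, 3 of 5 genes of naive and recirculating T cells, 1 of 6 genes of intraepithelial and resident T cells and 1 of 8 cytotoxic genes. Both listed genes of the receptor complex, Cd8b1 and the CD3 partner chain Cd247, were higher. The median differences were largest for naive and recirculating T cells (1.11) and smallest for the cytotoxic (0.03) and intraepithelial lists (0.12). Ptprc, the CD45 phosphatase of all leukocytes, led the signalling list at 37.81, 14.22 and 15.07 FPKM in estrus and 7.67, 11.88 and 9.55 FPKM in diestrus. Tcf7, a factor of naive T cells, was at 19.48, 4.49 and 7.89 FPKM in estrus and 4.38, 4.60 and 4.21 FPKM in diestrus, with overlap of the phases.

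In vein 44 of the 68 genes passed the filter and in aorta 23, and limma called 0 in both, with 2 and 1 at an unadjusted p under 0.05. In vein 3 were higher in every estrus library and 0 lower, beside 5.28% and 12.9% of all genes, and in aorta 0 were higher and 4 lower, beside 2.39% and 9.54%. Other libraries than the high ones moved these counts. Without vein diestrus replicate 3, 22 of the 44 were higher (8.69% of all genes), without vein estrus replicates 1 and 2 in turn 7 and 5 were (10% and 7.99%), and without aorta diestrus replicate 2, estrus replicate 3 and estrus replicate 2 in turn 13, 8 and 6 of the 23 were lower (15.7%, 14% and 17%). The median differences were 0.66 in vein and -0.64 in aorta. In vein estrus replicate 3 all 21 genes of receptor signalling were the highest of the tissue, by a median of 11.5 times the other libraries, and in aorta diestrus replicate 3 it was 20 of 21, by a median of 5.08 times. Of the 12 cytotoxic genes, 8 were highest in that vein library, while all 11 that could be compared were highest in that aorta library.

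To describe which lymphocyte genes accompanied the T cell genes, 19 genes were set against the mean of Cd3d, Cd3e and Cd3g within each library, as log2 ratios with 0.1 FPKM added to both parts. The denominator holds members that were chosen with their levels against spleen known, so the tests described next are not independent of that choice. Their p-values and calls, here and below, are given as a description of how far the libraries lay apart. Each was compared between spleen and the 6 libraries of duodenum, vein or aorta by an exact two-sided permutation test, with Benjamini-Hochberg adjustment over the 57 tests. The smallest p that 6 libraries against 6 allow is 0.0022. In duodenum 17 of the 19 ratios had an adjusted p no higher than 0.05 against spleen, in vein 12 and in aorta 15. For the reason above, these counts do not establish that the ratios differ between the tissues. The 17 include Rag1, higher by 2.14 in duodenum, where its level was well under the 0.1 FPKM added. That ratio follows the lower CD3 level and the value added, and is no result about Rag1. The 12 and the 15 include both Rag1 and Dntt, with the limit given below for the vessels.

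Relative to CD3, granule and gut homing genes were higher in duodenum than in spleen, and several of them in vein and aorta too, with the limits given below. The log2 ratio of Gzma was 2.93 ± 0.65 in duodenum and -2.80 ± 1.04 in spleen (SD, n = 6 each, exact permutation adjusted p = 0.0037, higher in 6 of 6 libraries). Gzmb, another granule protease, was higher by 5.84, Itgae by 3.17, the receptor Cd160 by 2.01 and Ccr9, the receptor for the gut chemokine Ccl25, by 1.94 on the log2 scale, each with the same adjusted p from the exact permutation test. In FPKM, Gzma at 44.30 to 176.23 and Gzmb at 13.02 to 56.44 in duodenum lay above every spleen library, at most 21.14 and 6.70.

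Genes of naive and recirculating cells were lower relative to CD3 in duodenum. Ccr7 was lower by 3.06 on the log2 scale, Lef1, a factor of naive T cells, by 2.87, Tcf7 by 1.63 and Il7r, the receptor for the survival cytokine of naive cells, by 1.14, all with an exact permutation adjusted p of 0.0037. Foxp3, the factor of regulatory T cells, was lower by 1.59 (exact permutation adjusted p = 0.0067). Cd247 was lower by 0.93 (exact permutation adjusted p = 0.0037), and the difference of Zap70, the kinase that binds phosphorylated CD3, was -0.19 (exact permutation adjusted p = 0.23).

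Duodenum estrus replicate 1 differed from the other duodenum libraries in these ratios. Its Ccr7 ratio was -0.86, against -2.72 and -2.93 in estrus replicates 2 and 3 and -4.60 to -4.11 in diestrus, while the spleen libraries ran from -0.35 to 0.04. Its Cd79a ratio of 4.07 was above the spleen range of 3.33 to 3.75, against 1.08 and 2.08 in the other estrus libraries and 0.76 to 1.49 in diestrus. Its Gzma ratio of 1.68 was the lowest of duodenum and still above the highest spleen value, -1.71. The Ccr7 ratios of estrus were above those of diestrus in all 3 libraries, while those of Cd79a overlapped.

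Vein estrus replicate 3 was close to spleen in most of these ratios. Cd8b1 was at 0.21 against -0.21 to 0.16 in spleen, Tcf7 at 0.85 against 0.53 to 0.99, Lef1 at -0.52 against -1.06 to -0.66, and Gzma at -4.16 against -4.12 to -1.71. Ccr7, at -0.65, and Cd79a, at 1.85, were below their spleen ranges. Aorta diestrus replicate 3 lay further off in several ratios, with Tcf7 at -0.08 and Lef1 at -1.86 below spleen, and Gzmb at -1.12 and Itgae at -3.14 above it. Its Ccr7 ratio, at -0.48, was also below spleen but nearer to it than that of the vein library.

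In the remaining libraries of vein and aorta the CD3 chains were near 1 FPKM, so a ratio there moves with any expression in other cells and with the 0.1 FPKM added. This applied most to Rag1 and Dntt, whose ratios were higher than in spleen in both vessels with levels of at most 0.24 and 0.76 FPKM. A gene absent from such a library gets a ratio set by the CD3 level and the 0.1 FPKM alone. Rag1, near absent, averaged -4.64 in vein and -3.31 in aorta. The spleen means were -4.76 for Itgae, -4.47 for Cd160, -4.39 for Gzmb and -3.93 for Ccr9. For these genes a higher ratio in the vessels is thus in part given by the value added, and their differences are a description. Cd247 was higher relative to CD3 by 1.60 in vein and 2.08 in aorta, and Itgae by 2.80 and 3.10 (exact permutation adjusted p = 0.0037 for each). Gzmb was higher by 3.40 and 4.12 (exact permutation adjusted p = 0.013 and 0.0037). Cd160 was higher by 1.94 and 2.39 (exact permutation adjusted p = 0.020 and 0.0037). In aorta Gzma and Ccr9 were higher by 1.92 and 1.22 (exact permutation adjusted p = 0.016 and 0.0067), and in vein neither was called. In vein and aorta Ccr7 was lower by 1.13 and 0.83, and Cd79a by 2.88 and 2.12 (exact permutation adjusted p = 0.0037 for each).

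**Figure D4:**
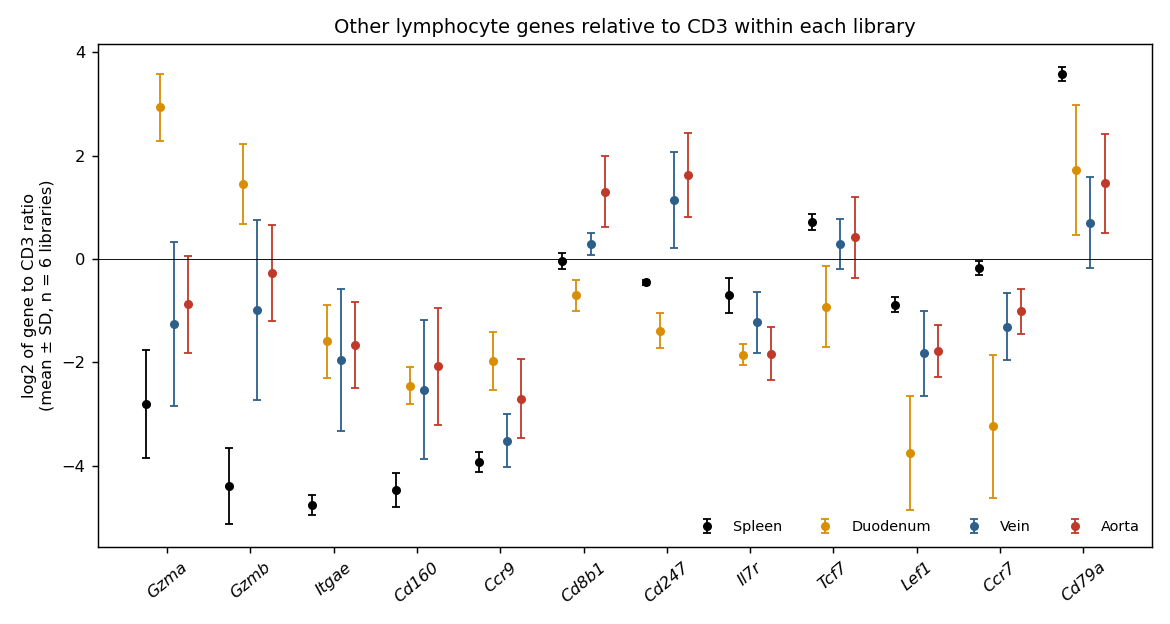
Log2 ratio of 12 lymphocyte genes (horizontal axis) to the mean of Cd3d, Cd3e and Cd3g within a library (vertical axis), as mean ± SD of 6 libraries each of spleen, duodenum, vein and aorta. The means of Gzma and Gzmb are above 0 only in duodenum, and the wide bars of Ccr7 and Cd79a in duodenum include the high estrus replicate 1.

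In the 12 tissues outside duodenum, vein and aorta, 57 pairs of a member and a tissue passed the filter. Limma with Benjamini-Hochberg adjustment called 0 of them, with a lowest adjusted p of 0.60 and 3 at an unadjusted p under 0.05, where it called 0.00798% of all genes in spleen, 0.00936% in skeletal muscle and 0% in each of the other 10 tissues. The 3 were Cd4 and Lck in spleen and Cd2 in WAT. In spleen Cd4 was at 74.7 ± 10.3 FPKM in estrus and 89.5 ± 2.40 FPKM in diestrus (SD, n = 3 each), and Lck at 103 ± 11.3 and 120 ± 2.94 FPKM. Their log2 differences were -0.27 ± 0.10 and -0.23 ± 0.09 (SE, limma adjusted p = 0.93 for both). All 3 estrus libraries were below diestrus for these genes, which 5.7% of all genes tested in spleen were too, and none of the 9 was above, which 3.09% were. Spleen estrus replicate 2 also held pancreatic RNA, with a summed FPKM of 2233 over the 5 acinar genes against 3.80 to 12.2 in the other spleen libraries.

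In WAT Cd2 was at 5.83, 5.89 and 4.84 FPKM in estrus and 3.03, 4.20 and 4.55 FPKM in diestrus, a log2 difference of 0.41 ± 0.16 (SE, limma adjusted p = 0.79). Cd3d was likewise higher in every estrus library, at 1.72 to 2.39 FPKM against 1.45 to 1.69 FPKM, as 9.25% of all genes tested in WAT were, and none of the 9 was lower, as 2.74% were. Other cell types differed in the same direction. Smooth muscle genes were higher in every estrus library for 4 of 5, with a summed FPKM of 206 to 2443 in estrus, the highest in replicate 1, and 91.0 to 143 in diestrus. The macrophage list summed to 138 to 492 and 119 to 161 FPKM, and the lymph node stroma list to 12.4 to 228 and 2.54 to 14.2 FPKM. Their part in the WAT values of Cd2 and Cd3d was not tested. In uterus the CD3 chains overlapped between the phases, with Cd3g at 2.18 to 4.62 FPKM in estrus and 2.45 to 5.41 FPKM in diestrus.

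Some members were found without the others. In cerebrum Cd4 was at 0.33, 9.63 and 2.2 FPKM in estrus and at 10.64, 0.51 and 0.23 FPKM in diestrus, a tissue mean just below that of vein, while Cd3e did not exceed 0.22 FPKM. The high values were split between the phases. They followed genes of the striatum, a region under the cortex, in a list added after the values were seen. Rgs9, a regulator of dopamine signalling, was at 5.74, 65.73 and 18.10 FPKM in estrus and 63.80, 7.82 and 5.99 FPKM in diestrus, and the dopamine receptor gene Drd1 at 2.30, 28.92 and 9.20 FPKM and 23.09, 3.74 and 2.36 FPKM. Over these 6 libraries Pearson's r of log2(FPKM + 1) with Cd4 was 0.95 to 1.00 for the 8 striatal genes, a description over libraries of 1 tissue. The part of brain region in these values was not tested.

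**Figure D5:**
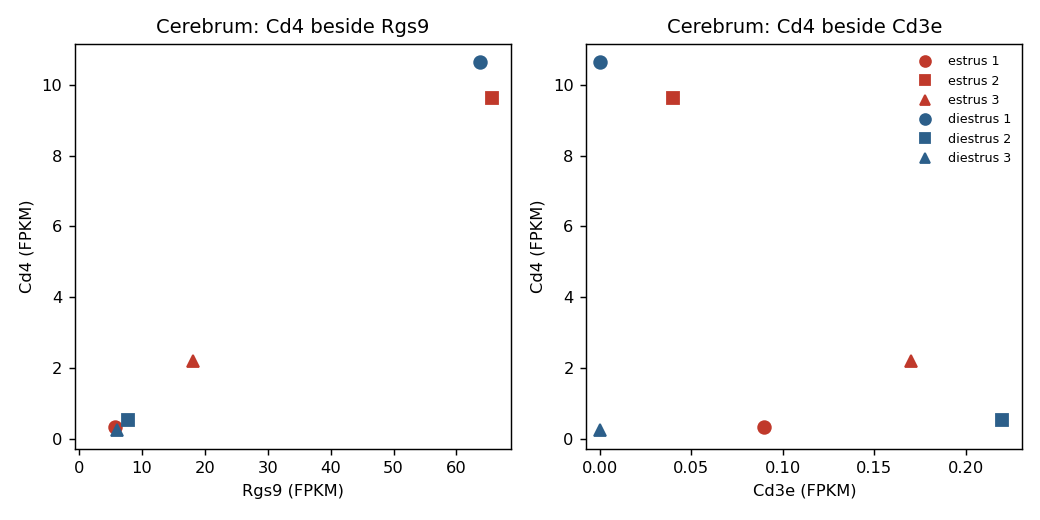
FPKM of Cd4 (vertical axis) beside that of Rgs9 (left) and Cd3e (right, horizontal axes) in the 6 cerebrum libraries, with estrus in red, diestrus in blue and the symbol giving the replicate number. Cd4 rises with Rgs9 from 5.74 to 65.73 FPKM, while Cd3e stays at or under 0.22 FPKM.

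Lck was the member that departed from CD3 in the uterus. It was at 3.91, 8.45 and 2.05 FPKM in estrus and at 8.42, 8.46 and 5.48 FPKM in diestrus, the highest tissue mean after spleen and duodenum, with a log2 difference whose limma adjusted p was 0.90. Its ratio to Cd3e was 2.13 to 27.3 in uterus and 1.32 to 1.61 in spleen, without overlap. In hypothalamus Lck was at 1.08 to 1.50 FPKM, where Cd3e was at 0.04 to 0.22 FPKM. Cd8a was at 0.41 to 0.80 FPKM in hypothalamus and 0.61 to 0.91 FPKM in cerebrum, and in each of these libraries it was above every CD3 chain of the same library.

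In BAT estrus replicate 3, 8 of the 9 genes were listed at 0 and Lck at 6.73 FPKM, above the 0.47 to 1.37 FPKM of the other BAT libraries. Among 977 genes with a longest coding transcript within 5% of the 2185 bases of Lck, the lowest value above 0 in that library was 2.02 FPKM, against 0.01 to 0.03 FPKM in each of the other 89. The part of depth in the Lck value of that library was not tested.

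Over all 90 libraries each member followed the mean of the other 8, with Pearson's r of log2(FPKM + 1) from 0.93 for Cd4 to 0.99 for Lat. The correlations describe libraries that differ in tissue and share the pull of spleen. Without the 6 spleen libraries they ran from 0.77 for Cd4, 0.85 for Lck and 0.86 for Cd2 to 0.97 for Lat. Leaving out cerebrum, hypothalamus and BAT estrus replicate 3 as well brought Cd4 to 0.94 and Lck to 0.90, with Cd2 at 0.85.

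Of 12527 other genes that averaged 1 FPKM or more in spleen, the 10 most like the mean of the members were Ptprc (r = 0.99), Gimap7, Itgb7, Acap1, Ltb, Sh2d2a, Gpr132, Sash3, Cd96 and Rasal3 (r = 0.98). Sh2d2a and Ptprc belong to the list of receptor signalling and Cd96 to that of costimulation, and the remaining 7 stood in no list. Itgb7, the partner chain of Itgae, was at 87.6 FPKM in spleen and 8.71 FPKM in duodenum on average, and at 19.97 FPKM in vein estrus replicate 3 and 7.51 FPKM in aorta diestrus replicate 3. Ltb, which encodes lymphotoxin beta, was at 275 and 11.8 FPKM on average and at 49.0 and 12.34 FPKM in those libraries. Of the 10 genes, 8 were also among the first 10 when the 84 libraries other than spleen were used, and 4 when Spearman's rho was used.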

How the data were processed

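RNA of 15 tissues from mice in estrus and diestrus was sequenced, with 3 libraries per tissue and phase. Per the labels and the study's methods, reads cleaned with SOAPnuke were mapped by Bowtie2 2.2.5 to GRCm38.p5 and quantified by RSEM 1.2.8. The deposited values are FPKM of 20414 Entrez genes, without counts or totals. The header names no unit, which was taken from the methods and the values. RefSeq (GRCm38.p6) named 20265 of the genes. Tissue, phase and replicate came from the labels, which give an age of 10 weeks where the methods give another.

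Within each tissue, genes averaging 1 FPKM or more were compared between the phases on log2(FPKM + 1) by limma 3.58.1 (intensity trend on, R 4.3.3) and Benjamini-Hochberg adjustment. A call required an absolute log2 difference of 1 or more and an adjusted p no higher than 0.05. Differences on this scale understate low genes. The fit was tested on simulated data. Ratios used exact permutation tests in scipy 1.17.1. Python was 3.11.15, with numpy 2.4.6, pandas 2.3.3 and matplotlib 3.10.9.

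The members and gene lists were chosen with earlier results of these data known. Named were all 9 members, the ratio genes, the 10 most similar genes, and examples from the 3 most abundant genes of each list over duodenum, vein, aorta and spleen. Glycam1, Foxn1, Rag1, Rag2, the milk protein genes, Rgs9 and Drd1 were named outside this rule, after their values were seen or for what they mark. The tests and list counts include 3 genes that are not reported here by name. Likeness was computed over genes averaging 1 FPKM or more in spleen. Alternatives covered the pseudocount, the filter, the scale, a joint fit, the replicate number as a block, the fold limit and single libraries left out. P-values measure the spread between these libraries, which by the study's text were of different mice within a tissue and phase, and part of which may be technical.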

Additional observations from a re-analysis of the deposited data

Results flagged for a closer look

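The mean log2(FPKM + 1) of the 9 genes was examined for a library apart from the other 5 of its tissue by Dixon's ratio, the gap to the nearest library over the whole range, with a limit of 0.625. In vein the ratio of estrus replicate 3 was 0.776, with a mean of 4.39 against 1.67 in the nearest library. In aorta that of diestrus replicate 3 was 0.702, with 2.99 against 1.202. In skeletal muscle that of estrus replicate 1 was 0.683, with 0.34 against 0.21, values so low that all 9 genes failed the filter there. These were 3 of 30 ends examined over 15 tissues, and chance passes the limit in about 1 in 20 groups. In vein and aorta the genes were selected on values that include these libraries, so the ratios there are a description and no test.

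The Lck values of the phases were ordered oppositely in duodenum and spleen. On the log2 scale the difference, estrus minus diestrus, was 0.879 in duodenum, with every estrus library above every diestrus library, as for 4.51% of all genes there, and it was among the values the gene was selected on. It was -0.23 in spleen, with every estrus library below, as for 5.7% of all genes, and limma did not call it (adjusted p = 0.93). The difference between the tissues was not tested.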

How the results depend on the processing

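Limma called 2 genes over the 15 tissues, 1 with no filter and 2715 in the joint fit of all libraries. That fit shares 1 estimate of the spread and has no term for the mouse. Of the 9 members in the 12 tissues outside duodenum, vein and aorta limma called 0, also in the joint fit. Of the T cell lists it called 0, and 15 in the joint fit, 6 of them in duodenum. In no tissue were all 3 correlations between the deviations of same-numbered libraries above 0.1, so they were not taken as pairs. A fit blocked on the number called 5 genes, none of them a member or list gene. Leaving out single replicates gave 1 to 99 genes, 99 without estrus replicate 1, of which 87 were in skeletal muscle and 10 in duodenum, with 0 members and 0 to 1 list genes, the 1 being in duodenum without estrus replicate 1.

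The level of duodenum, 10.9% of spleen, was 15.9% after division by the library median and 14.1% in estrus alone. Leaving out single libraries gave 0 to 5 members without overlap of the phases in vein and in aorta, and 7 to 8 in duodenum. The 5 were higher in estrus without vein diestrus replicate 3, as were 8.69% of all genes, and lower without aorta estrus replicate 3, as were 14%. For the T cell lists in vein the count went from 3 higher and 0 lower to 3 and 2, 5 in all, without estrus replicate 3, beside 8.88% and 24% of all genes. These overlap counts were added after the data were seen. By Spearman's rho 4 of the 10 most similar genes were shared.

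Of the ratios to CD3 reported here, 6 values turned their sign under an alternative. With 1 FPKM added, Dntt in duodenum was 1.82, Il7r and Foxp3 in vein 0.033 and 1.37, and Lef1 in aorta 0.031. Without single libraries Dntt in duodenum was -0.23 to 0.024 and Foxp3 in aorta -0.21 to 0.31. A further 13 values kept their sign and lost their call under an alternative, and 13 kept it and gained one. Depth was not known from the table, which limits the reading of levels under 1 FPKM in vein, aorta and brain. The cause of these changes was not tested.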

Other observations

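Genes of other leukocytes in duodenum were divided. Of the 6 genes of macrophages and monocytes, 4 were lower in every estrus library than in diestrus and 0 higher, and of the 5 plasma cell genes 2 were lower and 0 higher, where 22.1% of all genes tested in duodenum were lower in this way. Limma with Benjamini-Hochberg adjustment called none of these 11 genes, with 3 at an unadjusted p under 0.05. Csf1r, the receptor that maintains macrophages, was at 8.78, 10.00 and 12.05 FPKM in estrus and at 12.24, 18.02 and 13.32 FPKM in diestrus. Lyz2, the lysozyme of macrophages, was instead highest in estrus replicate 1, at 187.60 FPKM against 56.03 to 85.01 FPKM in the other 5 libraries, and Cd68 overlapped between the phases. Jchain, which links secreted IgA of plasma cells, was lowest in estrus replicate 1, at 161.65 FPKM against 578.99 to 1501.32 FPKM in the other 5 libraries, although the B cell genes were highest there. All 5 genes of natural killer cells failed the filter of a mean of 1 FPKM in duodenum.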
